A study of Mus musculus with 10 samples.

Results

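Expression of 9 genes that build the inner plaque of the desmosome, the cornified envelope scaffold beneath it and its extracellular glue was followed in mouse keratinocytes with and without RhoA, a small GTPase that organises actin. The genes are Dsp, Jup, Pkp1, Pkp2, Pkp3, Perp, Evpl, Ppl and Cdsn, and they were taken with every probe set that the platform annotation gives to that symbol alone. This gave 15 probe sets of the 45037 on the array, for 9 of 18193 named genes. No probe set was shared between a member and another annotated symbol. The RhoA-KO samples carried RhoA fl/fl with K5 cre, a recombinase driven from a basal keratinocyte promoter, and the controls, titled wildtype, carried RhoA fl/+ with the same K5 cre, so every sample of both groups had the Cre and a floxed allele. Keratinocytes were either freshly isolated from mouse skin epidermis (2 control and 2 KO arrays) or grown as primary cultures (3 control and 3 KO arrays). The labels give no age, time in culture or pooling, and although the titles speak of biological replicates, no animals are identified. The p-values therefore measure the spread between these samples.

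Desmosomes are the junctions that tie the keratin networks of neighbouring cells together. Desmosomal cadherins span the gap between cells, plakoglobin (Jup) and the plakophilins (Pkp1, Pkp2, Pkp3) bind their tails inside the cell, and desmoplakin (Dsp) links this plaque to keratin filaments. In the outer epidermis envoplakin (Evpl) and periplakin (Ppl) provide the first scaffold of the cornified envelope, and corneodesmosin (Cdsn) is added outside the cell as desmosomes mature into corneodesmosomes, which hold the cornified layers until they are shed.

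Cultured and fresh arrays were deposited on different scales, with array medians of 7.75 to 8 signal units in culture and 64.1 to 64.8 in fresh cells. Signals were compared only between arrays of the same condition, and levels in culture and in fresh cells were compared by rank within an array. The keratinocyte markers Krt5, Krt14, Krt1, Krt10, Trp63, Itga6 and Itgb4 were all above the filter in both conditions, although Krt1, a suprabasal keratin, read only 9.18 in cultured control, near the floor. Fresh KO replicate 2 stood apart: the summed signal of 13 hair follicle markers was 43457 on it, while the controls had 948 and 1704 and KO replicate 1 had 763. Its 7 melanocyte markers summed to 4940, while the controls had 1248 and 1342 and KO replicate 1 had 1535. Not all of them rose: Mitf read 474 on KO replicate 2 and 669 and 699 on the controls. Sox10 read 116 on KO replicate 2 and 92 and 110 on the controls. The 7 Langerhans cell and myeloid markers summed to 7087 on KO replicate 2, while the controls had 18060 and 22792 and KO replicate 1 had 15029. Its 6 fibroblast markers summed to 1344, while the controls had 278 and 303 and KO replicate 1 had 445. Most of this was Dcn, at 1012 on it and 137 on KO replicate 1. Col1a1, Col1a2, Col3a1 and Lum differed little between KO replicates 1 and 2 (39.3 and 38.7, 135 and 133, 83 and 94, 27 and 29). The fresh controls read 36.09 and 34.25 for Col1a1 and 100 and 118 for Col1a2. They read 22.9 and 21.4 for Col3a1 and 19.5 and 17.8 for Lum. On each of these genes both controls lay below both KO arrays. Pdgfra read 24.5 on KO replicate 1 and 37.7 on KO replicate 2. No marker was listed at 0 on any array. In such mixed preparations fewer cells of a type and less RNA per cell cannot be told apart.

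The RefSeq promoter table (GRCm38.p6) held 3 of the 9 members. The 250 bases before the annotated start are shown for Dsp and Cdsn, whose probe sets all stood higher in cultured KO cells, and for Jup, which showed no such separation. All are written 5′ to 3′ on the strand of the gene. Dsp lies on the plus strand at chr13:38151044-38151293, the upstream start of Cdsn on the plus strand at chr17:35542851-35543100, its downstream start on the plus strand at chr17:35551878-35552127, and Jup on the minus strand at chr11:100397791-100398040. Capitals mark GC boxes, the hexamer GGGCGG on either strand, a motif chosen after the sequences were seen.
Dsp: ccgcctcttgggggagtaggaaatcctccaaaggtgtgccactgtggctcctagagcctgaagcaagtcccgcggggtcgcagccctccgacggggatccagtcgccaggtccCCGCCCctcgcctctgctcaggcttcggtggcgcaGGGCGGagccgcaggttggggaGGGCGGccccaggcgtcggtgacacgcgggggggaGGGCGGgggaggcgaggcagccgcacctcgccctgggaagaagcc
Cdsn, upstream start: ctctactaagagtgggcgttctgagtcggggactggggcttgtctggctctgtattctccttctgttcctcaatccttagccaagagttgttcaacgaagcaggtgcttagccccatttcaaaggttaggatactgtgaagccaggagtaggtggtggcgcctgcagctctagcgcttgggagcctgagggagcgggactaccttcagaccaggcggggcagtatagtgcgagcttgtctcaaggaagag
Cdsn, downstream start: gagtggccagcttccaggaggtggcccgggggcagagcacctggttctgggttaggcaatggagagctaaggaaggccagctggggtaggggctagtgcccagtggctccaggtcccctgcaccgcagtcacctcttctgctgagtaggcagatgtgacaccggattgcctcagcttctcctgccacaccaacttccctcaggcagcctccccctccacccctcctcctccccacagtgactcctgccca
Jup: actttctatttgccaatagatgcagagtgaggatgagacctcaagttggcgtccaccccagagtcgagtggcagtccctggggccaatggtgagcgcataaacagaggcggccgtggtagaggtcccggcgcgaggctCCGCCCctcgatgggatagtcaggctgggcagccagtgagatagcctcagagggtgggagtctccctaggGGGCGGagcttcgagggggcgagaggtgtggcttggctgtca
Dsp carried 4 GC boxes and Jup 2, and neither Cdsn window had any; 32.7% of the 32851 promoter windows of the table hold at least 1. The GC content was 72.4% for Dsp, 62.0% for Jup, and 55.2% and 64.0% for the Cdsn starts. Motifs were also searched on both strands for AP-1 (TGANTCA), Grhl (AACNGGTT), TEAD (GGAATG) and the SRF CArG box, which 6.75%, 1.79%, 12.6% and 1.47% of all windows hold. These letters were not found in any of the 4 windows, which says nothing about binding of these factors.

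In cultured KO keratinocytes the members went different ways. Dsp and Cdsn stood higher and Evpl and Ppl lower than in control, with no overlap between the groups, while Jup, Pkp1, Pkp3 and Perp lay within the spread of the control arrays or close to it, and Pkp2 was weakly expressed and scattered. None of the 14 member probe sets tested passed limma's threshold (Benjamini-Hochberg adjusted p under 0.05 over 22682 probe sets), where 0.273% of all probe sets passed. At an unadjusted p under 0.05 there were 4 member probe sets higher, 3 of them for Dsp, and 2 lower. Over all probe sets the shares at that limit were 7.16% higher and 8.49% lower. Counted once per gene, 2 of 9 members were higher and 2 of 9 lower, with 8.05% and 9.73% over all representative probe sets, those with the highest mean log2 signal of their gene. Non-overlap was seen for the same 4 genes, 2 in each direction, against 11.2% higher and 13.5% lower over all representative probe sets. The median log2 change of the 9 members was 0.0043, against -0.0068 for all probe sets.

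**Figure D1:**
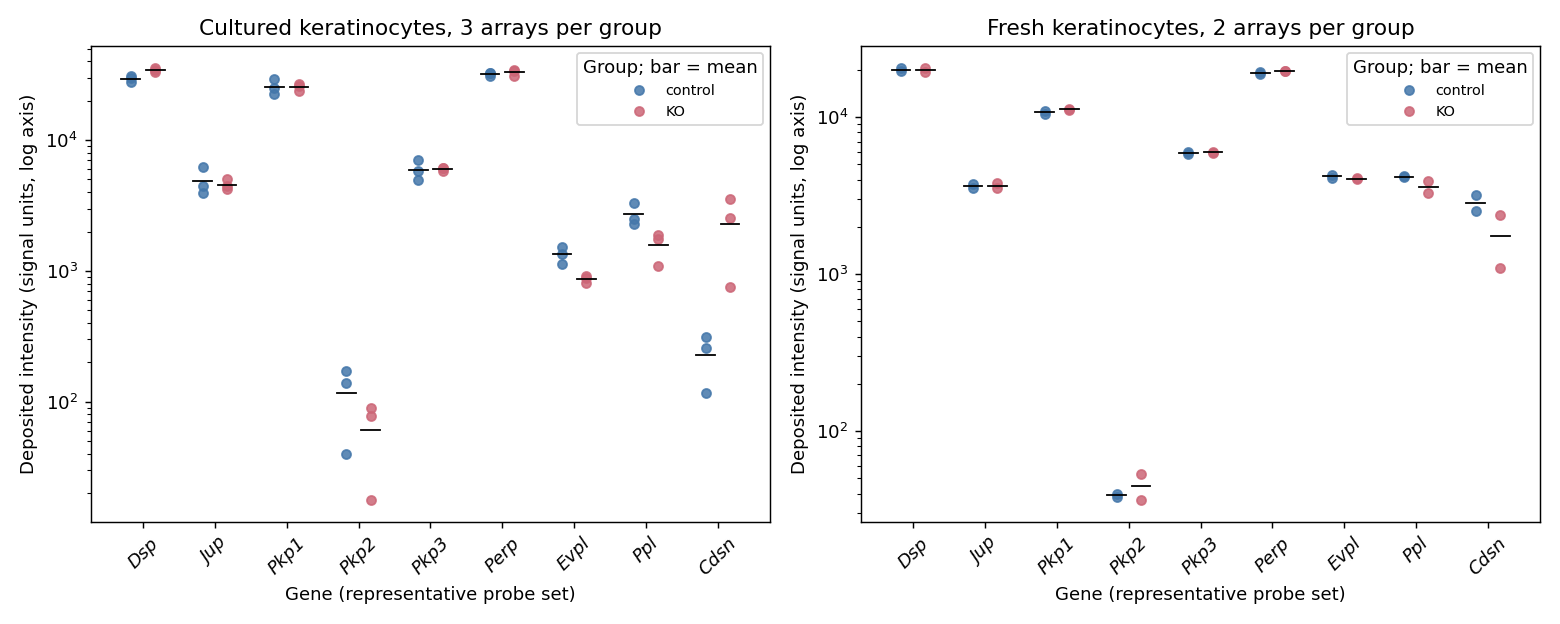
Deposited signal (log axis) of the representative probe set of each member on every array, cultured cells on the left and fresh cells on the right; points are arrays and bars the group means. In culture the Cdsn points of KO (760 to 3568) lie above all control points (116 to 310), and the Evpl points of KO (804 to 918) lie below all control points (1138 to 1530).

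Desmoplakin, the plakin that couples the plaque to keratin, was read by 3 probe sets, and all were higher on every cultured KO array than on any control array. The strongest, 1435494_s_at, read 30788, 27889 and 30041 on control arrays 1 to 3 and 35871, 33066 and 34319 on KO arrays 1 to 3 (log2 change 0.22, SE 0.05, limma adjusted p = 0.168). The second, 1435493_at, read 22229, 21478 and 19958 on the control arrays and 30382, 25015 and 24997 on the KO arrays (log2 change 0.33, SE 0.09, limma adjusted p = 0.193). The third, 1427610_at, read 3324, 3516 and 3871 on the control arrays and 5705, 5263 and 5039 on the KO arrays (log2 change 0.58, SE 0.08, limma adjusted p = 0.0746). KO replicate 1 was the highest array on all 3 probe sets. The change was thus 1.16-fold, 1.26-fold and 1.495-fold, smallest where the signal was highest, and none of them passed the threshold. The third came closest of all member probe sets, at rank 127 by p of 22682, and of the settings tried it passed only with array weights (adjusted p = 0.0429). The suffix _s_at marks probe sets whose probes can match more than 1 transcript.

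In fresh cells Dsp showed no such separation. Probe set 1435494_s_at read 19597 and 20673 on the control arrays and 19288 and 20723 on the KO arrays, and 1435493_at read 12724 and 14902 on the control arrays and 12012 and 13457 on the KO arrays. Probe set 1427610_at read 609 and 402 on the control arrays and 838 and 385 on the KO arrays. The groups overlapped on all 3, with log2 changes of -0.0098, -0.12 and 0.20 (limma adjusted p from 0.657 to 0.959). Without fresh KO replicate 2 the change on 1427610_at was 0.76 (adjusted p = 0.362), and without fresh KO replicate 1 it was -0.36 (0.456), so its direction rests on these arrays. The difference between the effect in culture and that in fresh cells was 0.23 (95% interval 0.053 to 0.41), 0.45 (0.15 to 0.74) and 0.38 (-0.52 to 1.28) on the log2 scale, and did not pass (adjusted p = 0.161, 0.114 and 0.650). That of 1427610_at ranged from -0.18 without fresh KO replicate 2 to 0.94 without fresh KO replicate 1, each with a single fresh KO array. That of 1435493_at passed with the replicate number as a block (adjusted p = 0.0218).

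The armadillo genes of the plaque overlapped between the genotypes in culture. Jup, which encodes plakoglobin and also serves adherens junctions, read 6192, 3966 and 4483 on the cultured control arrays and 5009, 4228 and 4485 on the KO arrays (log2 change -0.07, 95% interval -0.50 to 0.36). In fresh cells it read 3539 and 3755 on the control arrays and 3805 and 3516 on the KO arrays (0.0049, -0.20 to 0.21). The groups overlapped in both conditions.

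Pkp1, the plakophilin of the suprabasal epidermis, read 29174, 22393 and 24963 on the cultured control arrays and 26667, 23946 and 25766 on the KO arrays (log2 change 0.0043, 95% interval -0.25 to 0.26). On fresh arrays it read 10981 and 10547 on the control arrays and 11256 and 11190 on the KO arrays (0.061, -0.078 to 0.20), where KO lay above control without overlap and without passing (limma adjusted p = 0.674). Pkp3, expressed through most epidermal layers, read 7017, 4963 and 5840 on the cultured control arrays and 6074, 5827 and 6116 on the KO arrays on 1418831_at (log2 change 0.03, 95% interval -0.28 to 0.34). Its other probe set, 1418832_at, gave 0.16 (-0.13 to 0.44). In fresh cells these log2 changes were 0.018 and 0.10. Jup, Pkp1 and both Pkp3 probe sets shared an order among the cultured controls: replicate 1 was highest and replicate 2 lowest on each, and among KO arrays replicate 2 was lowest on Jup, Pkp1 and 1418831_at, while 1418832_at was lowest on replicate 3. Leaving out control replicate 1 turned the cultured Jup change to 0.11.

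Pkp2, the plakophilin of simple epithelia and heart that basal keratinocytes carry at low level, was read by 4 probe sets, all weak. On the representative, 1449799_s_at, cultured controls read 40.1, 139 and 171 and KO arrays 17.7, 77.4 and 88.8 (log2 change -0.99, SE 0.82, limma adjusted p = 0.603). On 1429183_at they read 11.8, 31.6 and 35.7 on the control arrays and 5.65, 13.5 and 13.5 on the KO arrays (-1.23, SE 0.54, limma adjusted p = 0.346). Replicate 1 was the lowest array of both genotypes on both probe sets, and the groups overlapped. The other probe sets, 1420259_at and 1460511_at, stayed near 8.6 and 5.5 signal units on all cultured arrays, near or below the array median, and the last was below the filter. Without control replicate 1 the changes were -1.64 and -1.74, and without KO replicate 1 they were -0.25 and -0.81, so their size rests on these arrays. With an offset of 16 added before the log2 the change on 1429183_at was -0.62. In fresh cells all 4 lay below the array median, at 20.8 to 53.4, and were not tested.

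Perp, a tetraspan membrane protein of desmosomes and a target of p53 family factors, was among the strongest signals. It read 32586, 31058 and 32582 on the cultured control arrays and 30943, 34189 and 33883 on the KO arrays (log2 change 0.04, 95% interval -0.088 to 0.17). In fresh cells it read 18906 and 19282 on the control arrays and 19618 and 19834 on the KO arrays (0.047, -0.068 to 0.16). The KO arrays lay slightly above in fresh cells without overlap and overlapped in culture, where quantile normalization turned the sign (-0.0014).

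**Figure D2:**
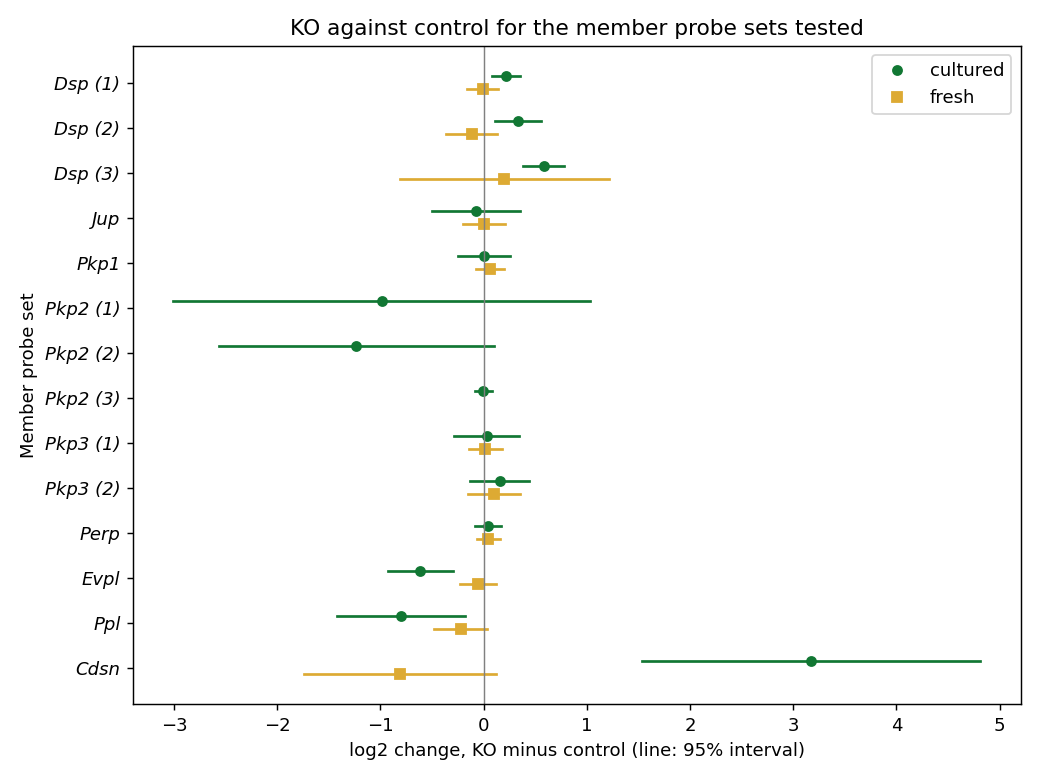
log2 change (KO minus control) of each member probe set tested, with limma's 95% interval, in culture (circles) and in fresh cells (squares); numbers in brackets order a gene's probe sets by mean signal. The Dsp and Cdsn intervals in culture lie above 0, those of Evpl and Ppl below 0, and none of these probe sets passed the adjusted threshold.

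The envelope plakins stood lower in cultured KO cells. Evpl read 1341, 1138 and 1530 on the control arrays and 804, 886 and 918 on the KO arrays (log2 change -0.61, SE 0.13, 95% interval -0.93 to -0.30, limma adjusted p = 0.131). Ppl, its partner in the envelope scaffold, read 2487, 2291 and 3331 on the control arrays and 1084, 1886 and 1765 on the KO arrays (-0.80, SE 0.25, -1.42 to -0.18, limma adjusted p = 0.235). All KO arrays lay below all control arrays for both genes. They also shared an order of arrays: control replicate 3 was highest and control replicate 2 the lowest control on both, and KO replicate 1 was the lowest of all. Of the settings tried, Evpl passed only in the fit over all 10 arrays (adjusted p = 0.0313). Without KO replicate 1 the Ppl change was -0.55.

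In fresh cells Evpl read 4128 and 4285 on the control arrays and 4088 and 4029 on the KO arrays (log2 change -0.051, 95% interval -0.23 to 0.12, limma adjusted p = 0.783). Ppl read 4157 and 4216 on the control arrays and 3917 and 3286 on the KO arrays (-0.22, -0.48 to 0.037, limma adjusted p = 0.437). Both KO arrays lay below both controls for each gene, a pattern that 24.7% of representative probe sets showed in this direction. The lower Ppl array was KO replicate 2, the one with the hair follicle transcripts, and the Ppl change was -0.096 without it and -0.35 without KO replicate 1; the part of the hair follicle transcripts in this was not tested. The effect on Evpl was lower in culture than in fresh cells by 0.56 on the log2 scale (difference -0.56, 95% interval -0.88 to -0.24), short of the threshold (adjusted p = 0.0730). It passed with array weights (adjusted p = 0.0444) and without cultured control replicate 2 (0.0317). For Ppl the difference was -0.58 (-1.18 to 0.025, adjusted p = 0.285).

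Corneodesmosin showed the widest separation of the members. Cdsn read 116, 310 and 259 on the cultured control arrays and 760, 3568 and 2523 on the KO arrays, a 9.02-fold difference of geometric means (log2 change 3.17, SE 0.67, 95% interval 1.54 to 4.81, limma adjusted p = 0.132). All KO arrays lay above all controls, and replicate 1 was the lowest of each genotype. In fresh cells the order was the opposite: 2511 and 3198 on the control arrays and 2390 and 1092 on the KO arrays (log2 change -0.81, SE 0.37, -1.74 to 0.12, limma adjusted p = 0.431). Neither change passed on its own. Without fresh KO replicate 2 the fresh change was -0.25, and without fresh KO replicate 1 it was -1.38, each from a single KO array. The KO array behind the -1.38 was replicate 2, the one with the hair follicle transcripts, whose part in this was not tested.

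The difference between both Cdsn effects was the single member difference that passed, with 3.98 on the log2 scale (SE 0.76, 95% interval 2.31 to 5.66, adjusted p = 0.0274). Of the 11 member probe sets tested for such a difference, 1 passed, against 1.95% of 18773 probe sets. Its size was 3.42 without fresh KO replicate 2, which left a single fresh KO array. It did not pass without fresh control replicate 2 (adjusted p = 0.131), cultured control replicate 3 (0.0663), cultured KO replicate 2 (0.0569) or cultured KO replicate 3 (0.0819), while its size stayed between 3.42 and 4.64 whichever array was left out. It also missed the threshold in the fit over all 10 arrays (0.118), in which the cultured change of Cdsn passed (0.0371).

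No member probe set passed in fresh cells, nor did any of the 22893 tested (0%). At an unadjusted p under 0.05 limma had 0 of 11 member probe sets and 2953 of all, or 12.9%. By representative probe set 2 of 8 members lay higher and 3 of 8 lower in KO without overlap, against 27.6% and 24.7% of all. Without fresh KO replicate 2 a single fresh KO array was left, and only sizes are given. The fresh changes were then -0.062 and -0.20 for Dsp 1435494_s_at and 1435493_at, 0.062 for Jup and 0.065 for Pkp1. They were 0.0018 and 0.058 for Pkp3 1418831_at and 1418832_at, 0.039 for Perp and -0.041 for Evpl.

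By rank within an array, the members differed in how their place in culture compared with that in fresh cells. The representative probe sets of Dsp, Pkp1 and Perp lay at or above the 98.9th percentile on every array of all 4 groups. Jup went from a mean percentile of 97.6 in fresh control to 94.6 in cultured control. The representative probe set of Pkp3 went from 98.7 to 95.5, while its other probe set, 1418832_at, rose from 89.6 to 91.3. Evpl went from 98.0 to 86.8, Ppl from 98.0 to 91.6 and Cdsn from 96.6 to 71.7. In KO cells the cultured mean percentiles were 83.5 for Evpl, 88.0 for Ppl and 89.1 for Cdsn, so Cdsn ranked nearer to its fresh KO percentile of 93.1. Pkp2 ranked at 35.5 in fresh control, below the array median, and at 66.8 in cultured control. Its probe sets 1420259_at and 1460511_at, flat over the cultured arrays, rose too, from 20.7 to 51.95 and from 13.5 to 32.9. The rise was therefore not taken as higher expression. These ranks were compared without a test.

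**Figure D3:**
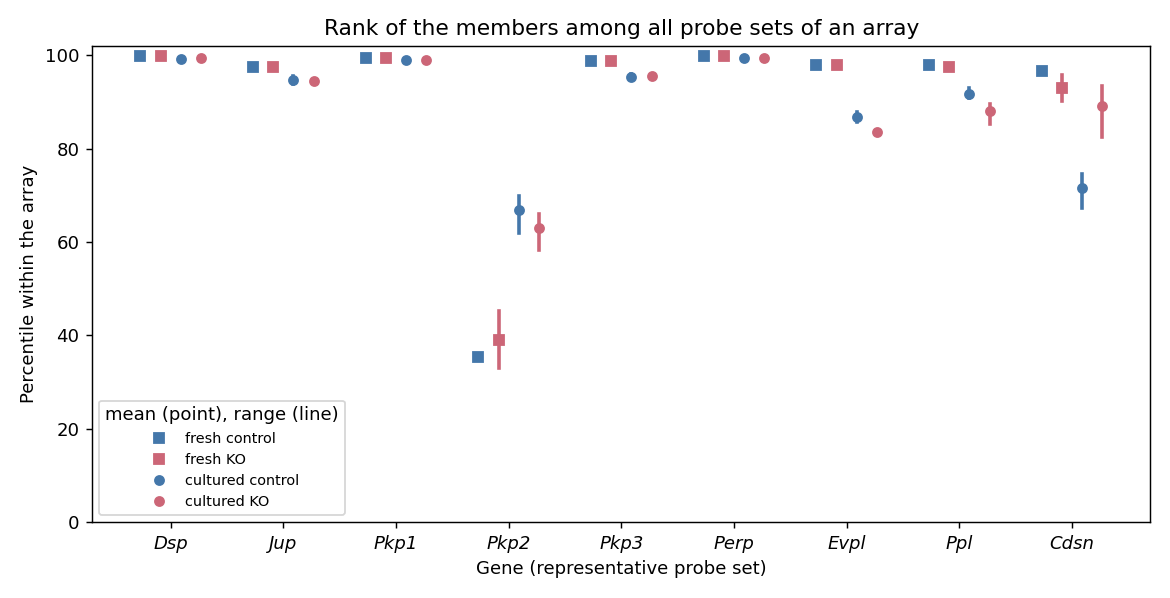
Percentile of each member's representative probe set among all probe sets of an array, as mean (point) and range (line) over the arrays of each of the 4 groups. Dsp, Pkp1 and Perp sit near 99 in all groups, while Cdsn lies at 96.6 in fresh control, 71.7 in cultured control and 89.1 in cultured KO.

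The desmosomal cadherins, which the plaque proteins bind, had 6 of 9 listed genes on the array. In culture 1 passed, Dsc1, and in fresh cells none, but the difference between conditions passed for 4 of 6, all towards higher in cultured KO: Dsc1, Dsg1b, Dsg1a and Dsc2 (adjusted p = 0.00206, 0.0110, 0.0210 and 0.0318). Among all representative probe sets tested for the difference, 2.37% passed. Dsg1a read 109 in cultured control and 199.9 in KO (log2 change 0.87, limma adjusted p = 0.0979) and Dsc2 1254 and 2825 (1.10, adjusted p = 0.175). Dsc3, a cadherin of the basal layer, was at -0.086 in culture and -0.088 in fresh cells, and Dsg2 at -0.37 and -0.45. The Jup, Pkp1 and Pkp3 signals thus stood at log2 changes between -0.07 and 0.16 in cultures where cadherin genes ranged from -0.37 to 2.51.

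**Figure D4:**
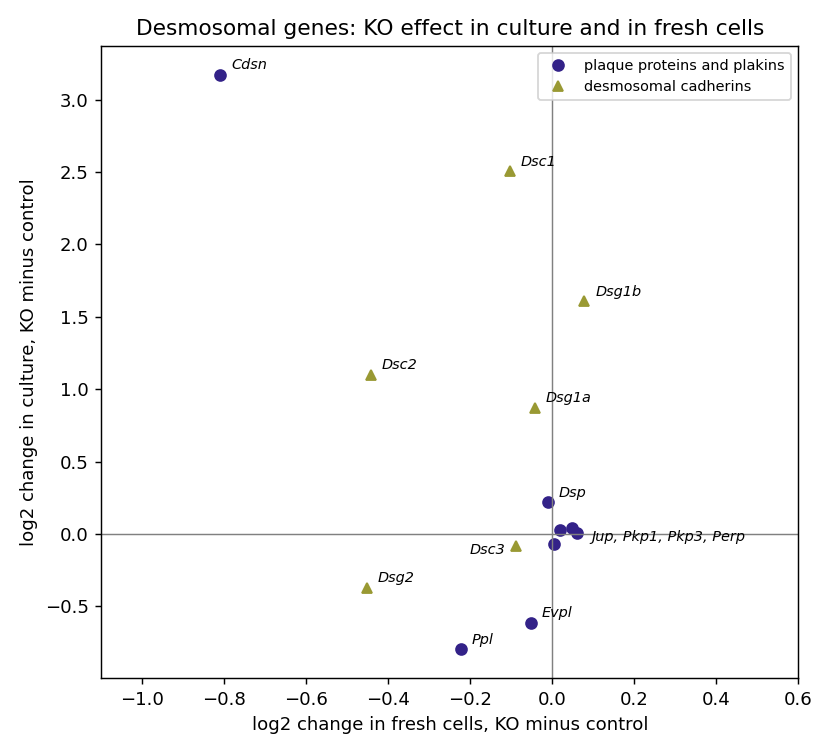
log2 change in culture (vertical) against that in fresh cells (horizontal) for the 8 members tested in both conditions (circles) and 6 desmosomal cadherins (triangles), each by its representative probe set. Cdsn is highest, at 3.17 in culture and -0.81 in fresh cells, and Jup, Pkp1, Pkp3 and Perp lie close to 0 on both axes.

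Of the other plakins, cytoskeletal linkers of the same family, none of 4 passed in either condition. Eppk1, which encodes epiplakin, stood lower in cultured KO like Evpl and Ppl, with 383, 172 and 261 on the control arrays and 152, 120 and 122 on the KO arrays (log2 change -0.98, limma adjusted p = 0.228). Dst, which carries the hemidesmosomal plakin BPAG1e, read 11863, 9075 and 10325 on the control arrays and 13785, 12717 and 13045 on the KO arrays (0.35, adjusted p = 0.216), and its effect differed between culture and fresh cells (adjusted p = 0.0290). Macf1 and Plec were at -0.013 and 0.20 in culture. In fresh cells all 4 plakins were lower in KO, Dst at -0.31, Eppk1 at -0.17, Macf1 at -0.37 and Plec at -0.090. Among the armadillo relatives Ctnnb1 and Pkp4 were at 0.036 and -0.018 in culture and Arvcf at 0.52 (adjusted p = 0.228), with 0 of 4 passing. Ctnnd2, below the filter in culture, was at -0.64 in fresh cells (adjusted p = 0.487) and at -0.29 without KO replicate 2. In the adherens junction list 0 of 7 passed in culture, with a median log2 change of 0.024, and 0 of 7 in fresh cells (median -0.11). Its 4 genes with the smallest p were Nectin1, at 0.11 in culture and 0.70 in fresh cells, Afdn at -0.41 and -0.20, Ctnna1 at 0.047 and -0.16, and Nectin4 at 0.17 and -0.16.

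Among keratins, the filaments that Dsp anchors, 8 of 10 were tested in culture, all 8 were higher and none passed. Krt6b, a stress keratin, was at a log2 change of 2.20 in culture (limma adjusted p = 0.109), and the suprabasal Krt10 at 0.47 (0.191). In fresh cells 0 of 10 passed. Krt1 was at 0.59 there (adjusted p = 0.242), and Krt15, a basal keratin below the filter in culture, at -0.22 (0.276). Fresh Krt6b was at 0.47 with both KO arrays. It was at 1.32 without KO replicate 2 and at -0.39 without KO replicate 1, so its direction rests on a single array. The partners of Evpl and Ppl in the cornified envelope, a list with genes that earlier results of these data had shown, had 12 tested in culture: 10 were higher, 2 lower, and 1 passed (Ivl), where 0.273% of all probe sets did, with a median log2 change of 1.36. Ivl, which encodes the early envelope precursor involucrin, rose by a log2 change of 2.07 (adjusted p = 0.0444). Rptn, which encodes repetin, had a mean of 8.73 on the control arrays, near the array median, and read 72.9, 248 and 347 on the KO arrays (adjusted p = 0.0643). Sprr1b, a small proline-rich envelope protein, was at 0.80 in culture (0.284) and 2.59 in fresh cells (0.242). Tgm3, a transglutaminase that cross-links the envelope, was below the filter in culture and at 1.63 in fresh cells (0.153). Lor, which encodes the late envelope protein loricrin, read 147, 262 and 250.1 on the cultured control arrays and 688, 1922 and 1766 on the KO arrays (2.64, adjusted p = 0.102), and 7810 and 11965 on the fresh control arrays and 6056 and 3540 on the fresh KO arrays (-1.06, adjusted p = 0.317). Without fresh KO replicate 2 the fresh Lor change was -0.67, and without fresh KO replicate 1 it was -1.45, each from a single KO array. The difference of the Lor effects passed (adjusted p = 0.0111), as did that of Ivl (0.00901), 2 of 11 tested, against 2.37% of all representative probe sets. Without fresh KO replicate 2, which left a single fresh KO array, these differences were 3.3 for Lor and 1.7 for Ivl on the log2 scale.

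Lor was also the gene most like Cdsn. Of 9800 other genes, its signal followed that of Cdsn most closely over the 10 arrays after each condition's mean was subtracted (Pearson r = 0.987). By the same measure Evpl was most like Rfx7 (0.987) and Epb41l4b (0.981), Ppl most like Tnfaip3 (0.984) and Hdac7 (0.982), and Dsp most like Ogfr (0.988) and Sox4 (0.954). For Jup, Irx3 came first (0.977), for Pkp1 Rbm42 (0.945), for Pkp3 Zfp784 (0.954) and for Perp Tom1l2 (0.963). These are the highest of 9800 values each and hold the genotype difference as well, so they are given as a description without a test.

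Of 15 genes listed for control of the desmosomal plaque, 0 passed in culture or in fresh cells. Snai2, a repressor of epithelial adhesion genes, read 14092, 17976 and 15521 on the cultured control arrays and 23445, 23024 and 21300 on the KO arrays (log2 change 0.52, limma adjusted p = 0.113). Ovol1, a differentiation regulator, was at -0.72 (adjusted p = 0.188), Ovol2 at 0.59 from a control mean of 10.9, near the floor, and Prkca, a kinase that acts on desmosome adhesion, at -0.51 (0.394).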

How the data were processed

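Labelled RNA was read on Affymetrix mouse genome arrays after amplification with an IVT kit, per the labels' protocols. The deposited values are linear intensities, a single number for each probe set and array, computed by the authors with MAS5 according to the submitters' processing notes; its version, like its settings, is not given in the sources used here. Probe sets were named by the platform annotation, with symbols brought up to date by Entrez identifier from RefSeq (GRCm38.p6): 34945 probe sets had 1 symbol, 932 several and 9160 none. The log2 of the intensity was used without an offset, and probe sets above the array's median on at least 2 arrays of a condition were kept. KO was compared with control by limma 3.58.1 in R 4.3.3 (lmFit, eBayes with trend, 2-sided, Benjamini-Hochberg over all probe sets, threshold 0.05), separately per condition. The difference of both effects was tested with both fits' moderated standard errors. Its p came from a t distribution with the degrees of freedom of both fits added. The fits within a condition were run on simulated data with known changes, and the mean size of these was recovered. This does not check the calls, and the test of the difference was not simulated. The genes named followed a rule: all members, the cadherins, up to 4 others per list by smallest p in either condition, any that passed, and the genes most like each member. Members and lists were chosen with earlier results of these data known. Precision is limited by having only 2 or 3 arrays in a group. Alternatives were other filters, scalings, an offset of 16, no trend, array weights, a replicate block, 1 fit over 10 arrays, and leaving out each array.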

Additional observations from a re-analysis of the deposited data

Results flagged for a closer look

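The KO effect on Cdsn differed between cultured and fresh cells by 3.98 on the log2 scale (adjusted p = 0.0274). Cdsn was the single member probe set of 11 whose difference between conditions passed the test. In culture 3 of 3 KO arrays lay above their controls, as for 11.2% of all representative probe sets. In fresh cells 2 of 2 lay below, as for 24.7%, and the higher KO array read 2390 against 2511 for the lower control. The difference did not pass in the fit over all arrays of both conditions (adjusted p = 0.118), nor with certain cultured arrays left out. Its size stayed between 3.42 and 4.64 whichever array was left out. In culture the summed signal of 7 melanocyte markers was 397 to 616 in control and 564 to 1456 in KO, that of 13 hair follicle markers 304 to 399 and 412 to 519, that of 6 fibroblast markers 43.7 to 56.3 and 45.9 to 53.8, and that of 7 Langerhans cell and myeloid markers 50.8 to 56.5 and 87.3 to 112.7. The hair follicle and the Langerhans cell and myeloid sums did not overlap between the genotypes. Most of the hair follicle sum was Tchh, at 238, 322 and 279 in control and 452, 403 and 335 in KO. Of the 4 hair follicle genes tested in culture 2 were higher and 2 lower. Of the Langerhans cell and myeloid list only Cd68 was above the filter in culture, at a log2 change of 1.31 (limma adjusted p = 0.0677). Its difference between conditions passed (adjusted p = 0.0241). The Langerhans cell marker Cd207 read 4.52 in control and 4.48 in KO, below the array median. The part of these lists in the result was not tested.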

How the results depend on the processing

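The count of 0 member probe sets called in culture held under all alternatives but array weights, which gave 1 (Dsp 1427610_at), and 1 fit over all 10 arrays, which gave 2 (Evpl and Cdsn); leaving out any 1 array kept it at 0. In fresh cells it was 0 in every setting that kept all arrays. Leaving 1 out left a group with a single array, so the fresh member counts of those fits are not given. For the difference between conditions the count of 1 became 2 with array weights, 2 with the replicate block and 0 in the 10-array fit, and ranged from 0 to 2 with an array left out. The cause of these shifts was not tested. Over all probe sets, the 62 calls in culture became 2 with no filter, 7 with no trend, 128 with 75th percentile centring, 299 with array weights, 512 in the 10-array fit, and 0 to 95 with an array left out. The 0 calls in fresh cells became 410 in the 10-array fit and 0 to 945 with an array left out. The 367 differences became 700 with array weights, 5 in the 10-array fit, and 28 to 1613 with an array left out.

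The replicate numbers were not taken as pairs in the main fit. Cultured arrays of the same number deviated together at correlations of 0.322, 0.0809 and 0.249, and those of unlike numbers at -0.3 to 0.172. Control replicate 2 correlated better with KO replicate 3 (0.172) than with its own number. Whether the cultured numbers mark pairs was not settled. The fresh value of -0.0548 cannot inform this, since with 2 arrays per group all correlations have the same size. With the replicate block 17 probe sets were called in culture, 0 in fresh cells and 555 differences, and the added member difference was Dsp 1435493_at (adjusted p = 0.0218).

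Signs that turned belong to changes close to 0 or to weak or single-array signals. Pkp2 1420259_at in culture became 0.017 with 75th percentile centring, 0.00080 with quantile normalization and 0.0039 with array weights. Quantile normalization also turned Perp in culture (-0.0014), Jup in fresh cells (-0.0063) and the Pkp3 1418831_at difference (-0.012), and the Perp difference became 0.0058 with centring and 0.018 with array weights. With an array left out, the ranges were, in culture, -0.21 to 0.11 for Jup, -0.085 to 0.11 for Pkp1, -0.010 to 0.0090 for Pkp2 1420259_at and -0.092 to 0.16 for Pkp3 1418831_at. In fresh cells they were -0.062 to 0.042 for Dsp 1435494_s_at, -0.36 to 0.76 for Dsp 1427610_at, -0.052 to 0.062 for Jup and -0.00079 to 0.037 for Pkp3 1418831_at. For the difference they were -0.18 to 0.94 for Dsp 1427610_at, -0.21 to 0.11 for Jup, -0.15 to 0.045 for Pkp1, -0.11 to 0.14 and -0.029 to 0.17 for Pkp3 1418831_at and 1418832_at, and -0.033 to 0.039 for Perp.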

Other observations

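Proteases and inhibitors that act on corneodesmosomes, the structures Cdsn belongs to, had 11 of 12 listed genes on the array. In culture 8 were higher and 3 lower in KO and none passed limma's threshold, with a median log2 change of 0.50. The kallikreins Klk6 and Klk8, secreted serine proteases, were at log2 changes of 1.62 (adjusted p = 0.204) and 0.87 (0.387). The lysosomal proteases Ctsd and Ctsl, cathepsins D and L, were at 0.50 (0.180) and 0.051 (0.878). In fresh cells 7 were higher and 4 lower, again with none passing (median 0.097), and Klk6, Klk8, Ctsd and Ctsl were at 1.36, 0.91, 0.31 and -0.77. The fresh changes of Klk6 and Klk8 were 1.40 and 0.996 without KO replicate 1, and 1.33 and 0.83 without KO replicate 2. Each of these came from a single KO array. For these genes the effects in culture and fresh cells did not differ past the threshold (0 of 11, adjusted p from 0.0658 for Ctsl to 0.967 for Klk8).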
